A study of Mus musculus with 4 samples.

Results

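Receptor subunits for glutamate and for GABA (γ-aminobutyric acid) were followed in mouse pancreatic islet cells given the peptide MOTS-c or a scrambled peptide. The members were all genes on the array with a symbol of the families Gria, Grik, Grin, Grid and Grm for glutamate and Gabr and Gabbr for GABA, each read through its brightest probe. By this rule 47 genes were found among 22911 genes with a symbol, 26 for glutamate and 21 for GABA. The samples were 4 one-color Agilent arrays of RNA from islet cells of 60-week-old C57BL/6 mice labelled male, 4 littermates in all, whose islets were handpicked and dispersed to single cells. The cells of scrambled replicates 1 and 2 received the scrambled peptide, which has the amino acids of MOTS-c in another order, and those of MOTS-c replicates 2 and 3 received MOTS-c, a peptide encoded in the mitochondrial genome, both ex vivo at 10 μM for 24 h. All 4 arrays thus share strain, age and peptide culture, and an untreated group was not analysed here. The comparison asks which genes differ in aged islet cells after MOTS-c, with n = 2 arrays a group.

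Glutamate and GABA are the main excitatory and inhibitory transmitters of the brain, and islets use both as local signals: beta cells make and release GABA, and alpha cells release glutamate. Ionotropic receptors are ion channels built from several subunits, which for glutamate form the AMPA, kainate, NMDA and delta classes and for GABA the GABA-A class with its rho subunits. The metabotropic glutamate receptors and GABA-B, a pair of subunits that work together, act through G proteins instead.

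The scanner software found 61.6% to 65% of gene spots well above their local background on the 4 arrays, with 0 saturated spots, and all arrays lay on 1 slide. The beta cell genes Ins1, Ins2 and Iapp, the alpha cell gene Gcg and the delta cell gene Sst were well above background on all 4 arrays, and Ppy of PP cells on 3. Xist, which is transcribed in female cells, was well above background on all 4 arrays, and the 7 probes of Y-linked genes were so in 0 of 28 readings, against the label male. MOTS-c replicate 3 stood apart from the scrambled arrays, with 3769 and 5728 probes at least 1.5-fold from scrambled replicates 1 and 2, against 2759 and 2386 for MOTS-c replicate 2 and 2242 between the scrambled arrays. Between the MOTS-c arrays the number was 3959.

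Of the 47 receptor genes, 28 were well above background on all 4 arrays, 16 of them for glutamate and 12 for GABA, 4 were so on some arrays and 15 on none. The number detected was 30 and 29 with the scrambled peptide and 28 and 31 with MOTS-c. In each gene that was detected on all arrays, the spot stood 1.44 to 120 times above its own local background. These ratios describe how well a probe was read and do not rank the genes, because probes bind with different strength.

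By class, all 4 AMPA genes (Gria1, Gria2, Gria3 and Gria4), which carry fast excitatory current in the brain, were detected on every array. So were 3 of 5 kainate genes, namely Grik3 and the high-affinity subunits Grik4 and Grik5, but neither Grik1 nor Grik2. Of 7 NMDA genes 5 were detected on every array, namely the obligatory subunit Grin1, the glutamate-binding subunits Grin2c and Grin2d, and the glycine-binding subunits Grin3a and Grin3b, while Grin2a and Grin2b were on no array. Of the delta genes Grid1 was detected on every array. Of the metabotropic genes Grm2 and Grm5 were detected on every array, and Grm3, Grm4, Grm6, Grm7 and Grm8 on none.

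Among the GABA-A genes other than rho, those detected on every array included the alpha subunits Gabra4 and Gabra5, the beta subunit Gabrb1, the gamma subunit Gabrg3, and Gabrd and Gabrq. Detection was mixed for others, since Gabrb2 was well above background on scrambled replicate 1 and MOTS-c replicate 3, and Gabra6 and Gabrg1 on MOTS-c replicate 3 alone. Gabra2, Gabra3, Gabre and Gabrp were on no array, where the spot of Gabra3 on MOTS-c replicate 3 had been set aside by the scanner software as an outlier. Of the 3 rho genes Gabrr1 and Gabrr2 were detected on every array and Gabrr3 on none, and both GABA-B genes, Gabbr1 and Gabbr2, on every array. At least 1 alpha, 1 beta and 1 gamma subunit gene was thus read on every array, as were both subunits of GABA-B. A probe below this limit gives only an upper bound for its gene, and in these whole-islet samples fewer cells of a type and less RNA per cell cannot be told apart.

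**Figure D1:**
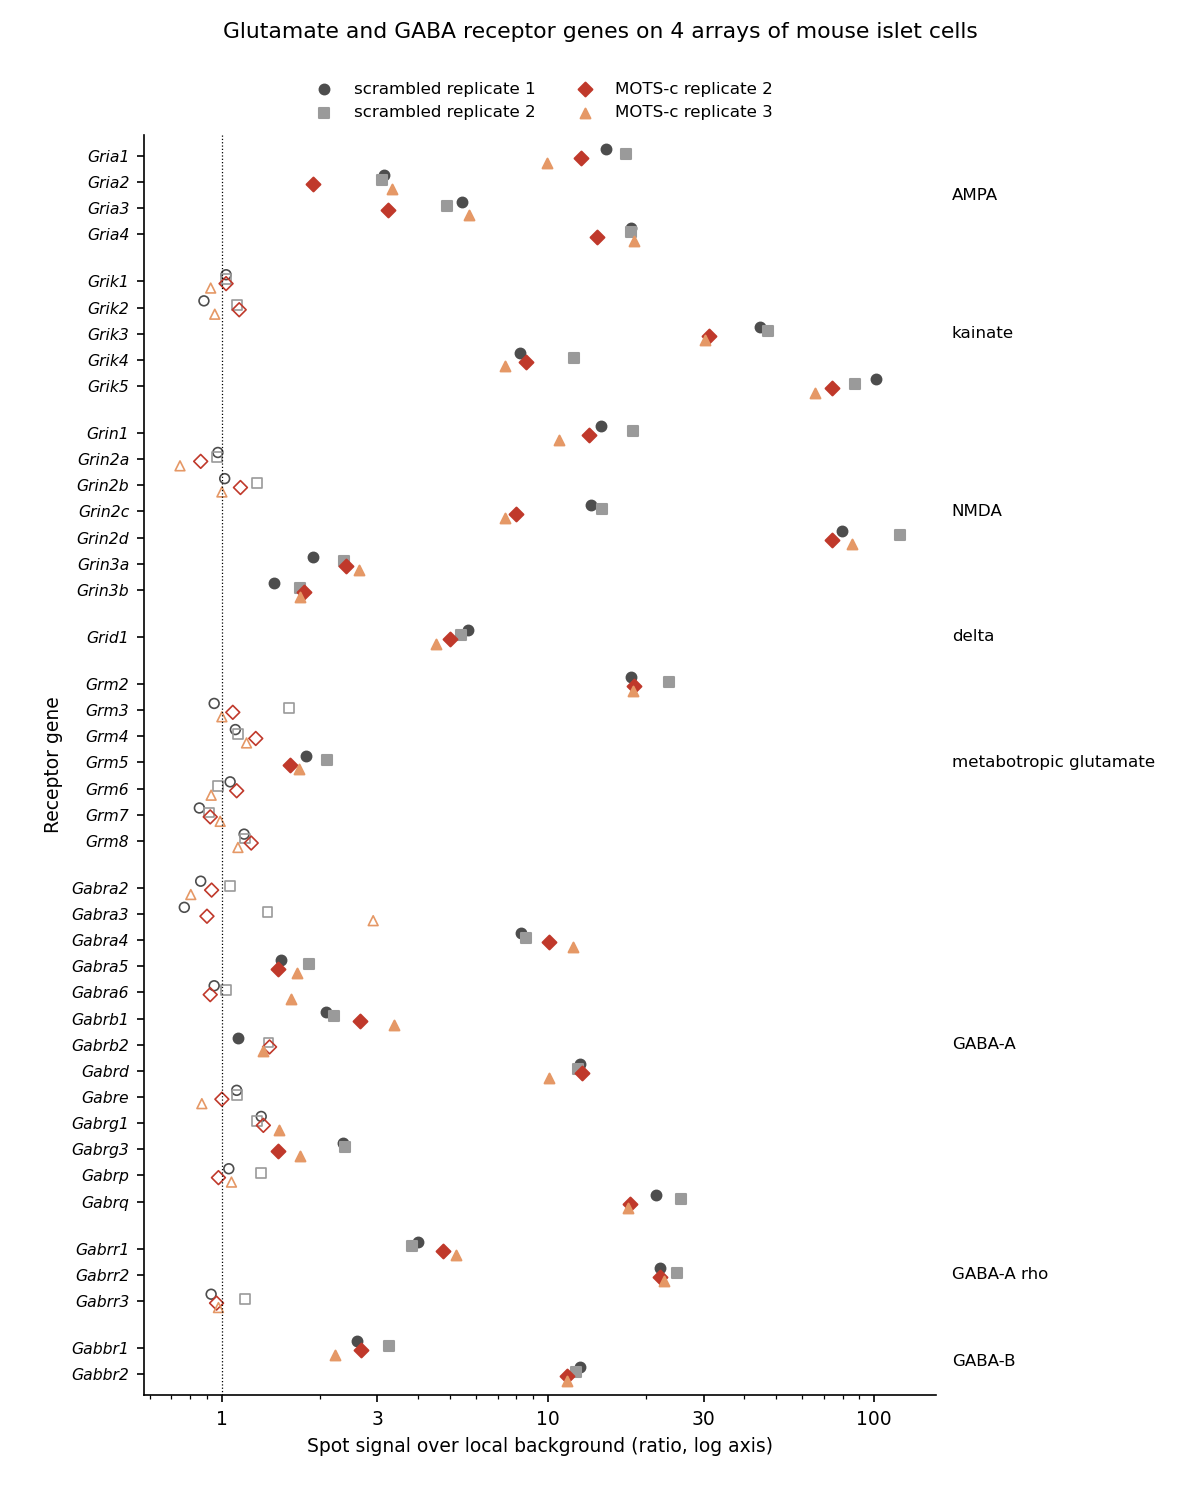
Signal of the brightest probe of each of 42 receptor genes over its local background (ratio, log axis) on the 4 arrays, by receptor class. Filled symbols are well above background and open symbols are not, and 25 genes are filled on all 4 arrays while 14 are open on all 4.

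For the comparison of MOTS-c with scrambled, 30 receptor genes could be tested, having passed the detection limit on 2 or more of the 4 arrays, 16 for glutamate and 14 for GABA. Of these, 0 passed an adjusted p under 0.05 (limma, Benjamini-Hochberg over 35087 probes), as did 0% of all probes tested, and the smallest adjusted p among both the receptor genes and all probes was 0.474. At an unadjusted p under 0.05, with no correction for the number of probes, 8 of the 30 genes (26.7%) differed, against 7.85% of all probes tested and 8.61% of the brightest probes of the 15469 tested genes with a symbol. Lower with MOTS-c were 6 of the 8 genes, among them Gria1, Grik3, Grik5, Grin2c and Gabrg3. Beside them stood 4.82% of all probes and 5.79% of the brightest probes. Higher were 2, Grin3a and Gabrb1, beside 3.03% of all probes and 2.83% of the brightest probes. With a difference of at least 1.5-fold as well, 4 lower and 2 higher genes were counted, beside 2.43% and 1.10% of all probes. The count of 8 changed when single arrays were left out, and the share of all probes called changed with it.

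**Figure D2:**
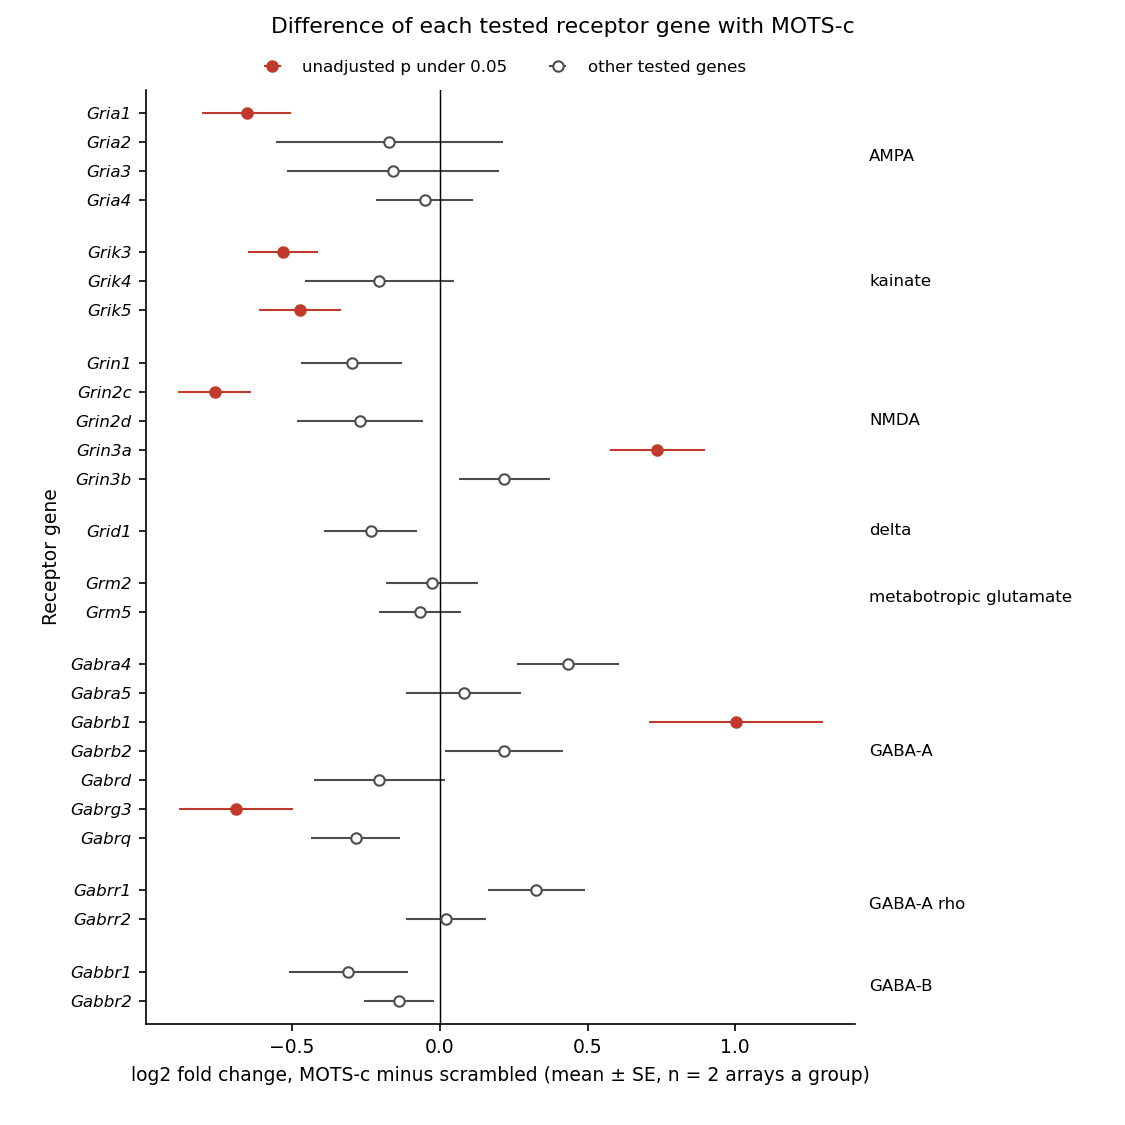
log2 fold change of MOTS-c minus scrambled for 26 tested receptor genes by class, as the mean difference with its limma standard error (SE, n = 2 arrays a group). Filled points mark 7 genes at an unadjusted p under 0.05, of which 5 lie to the left of 0, and 13 of the 15 glutamate receptor genes shown lie to the left of 0.

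The NMDA class held both the gene with the smallest p and one of the 2 that were higher. Grin2c, an NMDA subunit known best from the cerebellum, had a log2 signal of 8.87 and 8.77 with the scrambled peptide and 8.09 and 8.03 with MOTS-c. The groups did not overlap and the arrays of each group lay close together. The log2 fold change was -0.76 (SE 0.12, unadjusted p = 0.00212, limma adjusted p = 0.474), or 59% of the scrambled level. Its other probe had a log2 fold change of -0.75 (SE 0.14, unadjusted p = 0.00442, limma adjusted p = 0.474), so both probes read the gene lower. Grin3a, a subunit that lowers the calcium flow through NMDA receptors, went the other way, with a log2 signal of 5.28 and 4.997 with the scrambled peptide and 5.78 and 5.97 with MOTS-c. This gave a log2 fold change of 0.74 (SE 0.16, unadjusted p = 0.00742, limma adjusted p = 0.505). The spots of Grin3a stood 1.9 to 2.64 times above local background, and with another background correction (normexp) the log2 fold change shrank to 0.24. The remaining tested NMDA genes Grin1, Grin2d and Grin3b did not pass an unadjusted p under 0.05.

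Among the kainate subunits, all 3 tested genes had a negative log2 fold change. Grik3 had a log2 signal of 10.74 and 10.70 with the scrambled peptide and 10.20 and 10.18 with MOTS-c. Each pair of arrays nearly coincided and the groups stood apart, and the log2 fold change was -0.53 (SE 0.12, unadjusted p = 0.00769, limma adjusted p = 0.509). Grik5, a subunit that needs a partner to form a channel, had a log2 signal of 11.22 and 11.15 with the scrambled peptide and 10.82 and 10.61 with MOTS-c. The groups did not overlap, with a log2 fold change of -0.47 (SE 0.14, unadjusted p = 0.0212, limma adjusted p = 0.548). A second, dimmer probe of Grik5 gave -0.08 (SE 0.13, unadjusted p = 0.598), and the mean over both probes was -0.27, so the difference rested on 1 of 2 probes. Neither Grik3 nor Grik5 reached 1.5-fold.

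All 4 AMPA genes likewise had negative log2 fold changes, and 1 of them passed an unadjusted p under 0.05. Gria1, a pore subunit of AMPA receptors, had a log2 signal of 8.85 and 9.004 with the scrambled peptide and 8.39 and 8.15 with MOTS-c. Its groups did not overlap, with a log2 fold change of -0.65 (SE 0.15, unadjusted p = 0.00892, limma adjusted p = 0.513). In Gria2, Gria3 and Gria4 the groups overlapped. Gria3 and Gria4 had further tested probes whose log2 fold changes ranged from -0.16 to 0.03 and from -0.14 to 0.20, so their sign depended on the probe.

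The GABA-A class was split, with 5 tested genes below 0 and 5 above. Gabrb1, a beta subunit and so part of the GABA binding site of many GABA-A receptors, had a log2 signal of 5.37 and 4.74 with the scrambled peptide and 5.79 and 6.32 with MOTS-c. Both MOTS-c arrays were above both scrambled arrays, but the spread within the groups was wide, with an SD of 0.44 for scrambled and 0.38 for MOTS-c. The log2 fold change was 1.003 (SE 0.29, unadjusted p = 0.0213, limma adjusted p = 0.548), and it was 0.44 with the normexp correction. Gabrg3, a gamma subunit, had a log2 signal of 5.64 and 5.44 with the scrambled peptide and 4.64 and 5.06 with MOTS-c. Its groups did not overlap, with a log2 fold change of -0.69 (SE 0.19, unadjusted p = 0.0179, limma adjusted p = 0.539), and -0.32 with normexp.

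**Figure D3:**
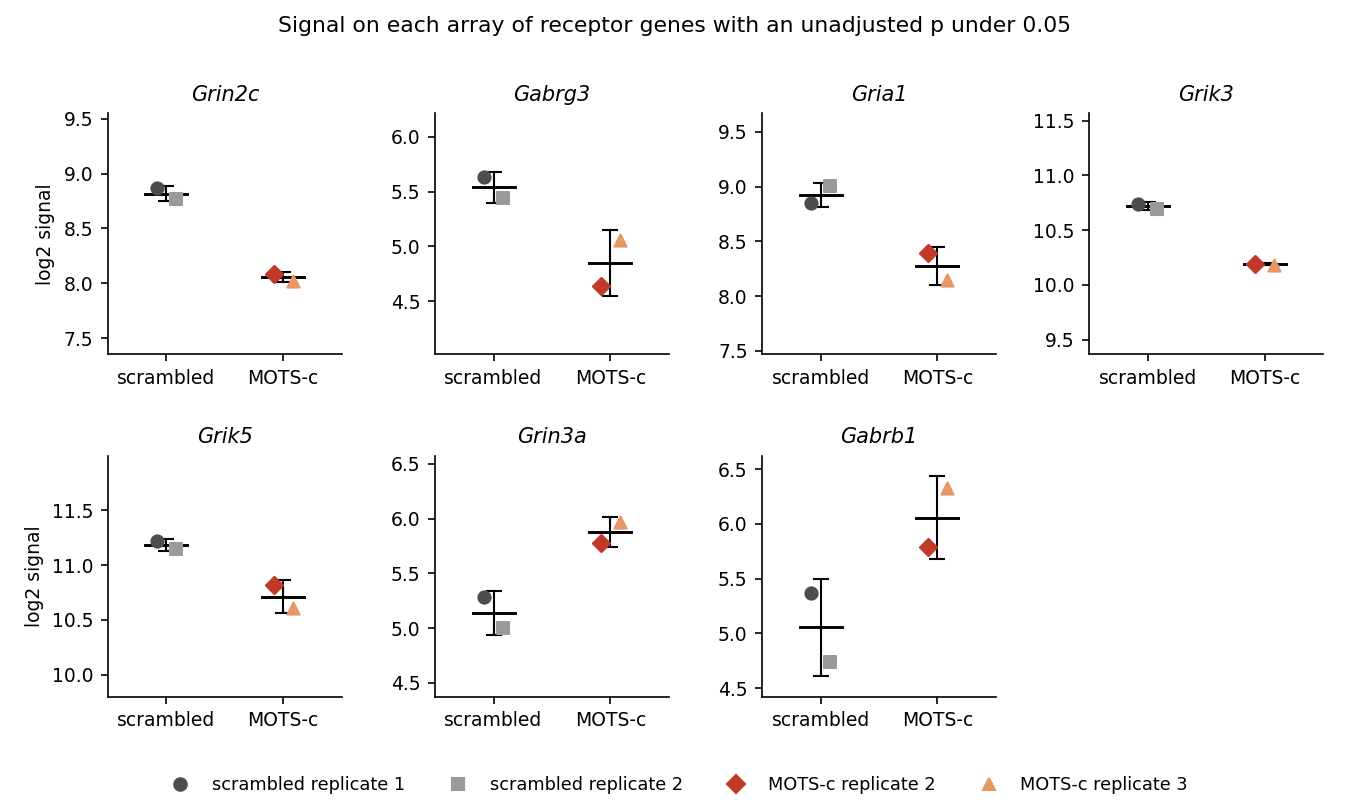
log2 signal (quantile normalized) on each array for 7 receptor genes at an unadjusted p under 0.05, with the mean (bar) and SD of each group (n = 2). Every panel spans the same number of log2 units around its own center, and all symbols shown are well above background. In each of the 7 genes the groups do not overlap, which their choice by p from these arrays makes likely.

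The remaining classes held no gene at an unadjusted p under 0.05, and 1 gene of each is given. Grid1, a delta receptor that acts as a synapse organizer more than as a channel, had a log2 signal of 7.30 and 7.09 with the scrambled peptide and 7.08 and 6.84 with MOTS-c. Its groups lay next to each other without overlap, with a log2 fold change of -0.23 (SE 0.16, unadjusted p = 0.199, limma adjusted p = 0.774). Grm2, a metabotropic receptor that lowers cAMP, had 9.21 and 9.52 against 9.37 and 9.31. The MOTS-c arrays of Grm2 lay between the scrambled arrays, with a log2 fold change of -0.03 (SE 0.16, unadjusted p = 0.868, limma adjusted p = 0.983). Gabrr2, a rho subunit first known from the retina, had 9.52 and 9.69 against 9.58 and 9.67, which overlap, with a log2 fold change of 0.02 (SE 0.13, unadjusted p = 0.883, limma adjusted p = 0.985). Gabbr2, the GABA-B subunit that couples to the G protein, had 8.49 and 8.48 against 8.38 and 8.31. The scrambled arrays of Gabbr2 were both higher, by a small amount, with a log2 fold change of -0.14 (SE 0.12, unadjusted p = 0.304, limma adjusted p = 0.829).

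The 22 tested genes without an unadjusted p under 0.05, these 4 included, had p from 0.0574 upward and log2 fold changes from -0.35 to 0.45. Among the 11 for glutamate 10 were below 0, and among the 11 for GABA 5 were below 0. Over all tested genes, 14 of 16 glutamate receptor genes were below 0 with a median log2 fold change of -0.20, and 7 of 14 GABA receptor genes with a median of -0.06. Among all probes 47.1% were below 0 and the median was 0.01. Among the brightest probes of tested genes with a symbol, 50.4% were below 0 and the median was -0.002. The SD of the median log2 signal between arrays of a group was 0.16 for the glutamate genes and 0.19 for the GABA genes, so the GABA median was smaller than that spread and the glutamate median not far above it. Over the alternatives the glutamate median ranged from -0.26 to -0.12 and the GABA median from -0.14 to -0.05, and with no filter on dim probes the GABA median (-0.14) lay below that for glutamate (-0.12). The groups did not overlap in 17 of 30 genes (56.7%), 8 for glutamate and 9 for GABA, against 38.0% of all probes. Of 13 alternatives, an unadjusted p under 0.05 was kept in 13 for Grin2c, 12 each for Gria1, Grik3 and Grin3a, 10 for Gabrg3, 9 for Gabrb1 and 8 for Grik5. Of 8 genes with more than 1 tested probe, the probes had the same sign in 6 and opposite signs in 2 (Gria3 and Gria4).

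**Figure D4:**
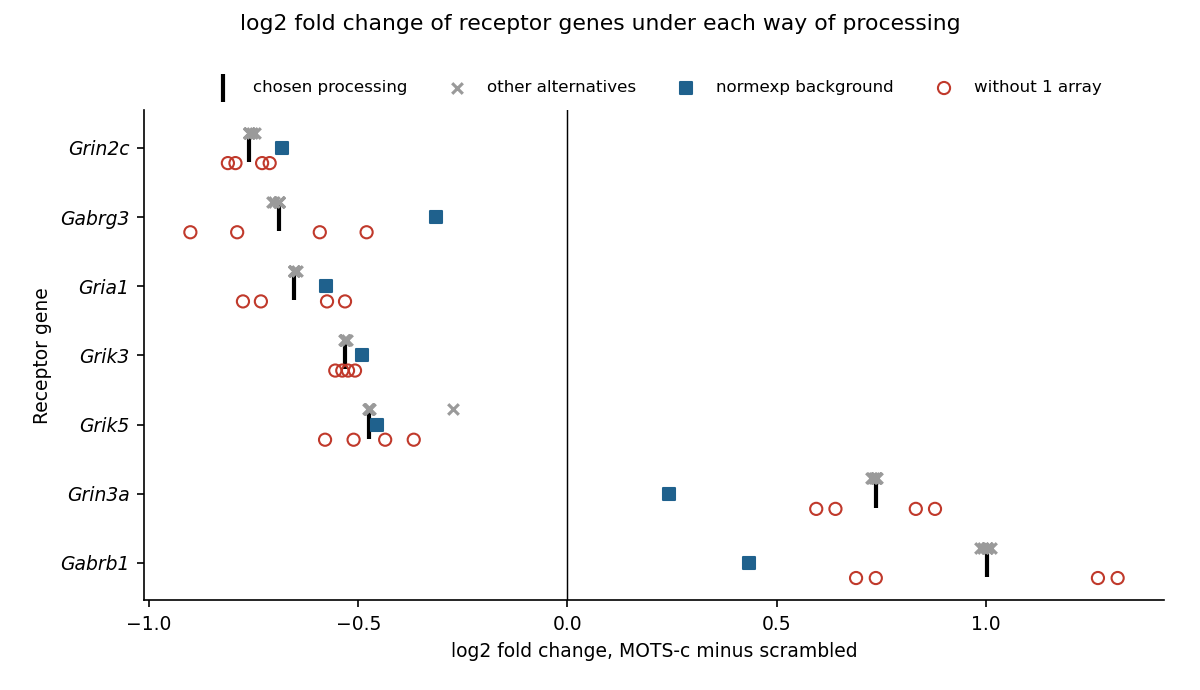
log2 fold change, MOTS-c minus scrambled, of 7 receptor genes in the chosen processing (bar), with the normexp background correction (square), with 1 array left out (circles) and under the other alternatives (crosses). The sign is the same throughout, while normexp moves the dim genes Gabrg3, Grin3a and Gabrb1 toward 0, Grin3a to 0.24.

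Several GABA-A genes are direct neighbors among protein-coding genes in the mouse assembly GRCm38.p6. Gabrg3 and Gabra5, which adjoin, had log2 fold changes of -0.69 and 0.08 (unadjusted p = 0.697 for Gabra5). Gabra4 and Gabrb1, which also adjoin, had 0.43 (unadjusted p = 0.0574) and 1.003. The first pair thus had opposite signs and the second the same sign. Gabra4 and Gabra5 were picked for this description after their values were seen.

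Promoter sequences of RefSeq on GRCm38.p6, from 250 bases before to 50 after a gene's start, were at hand for 32 of the 47 genes, among them 5 of the genes above. They let a reader set side by side the start regions of genes at an unadjusted p under 0.05, 4 lower and 1 higher with MOTS-c. None of these genes passed an adjusted p under 0.05. Capitals mark the GC box GGGCGG, searched on both strands, so that CCGCCC is the same box read from the other strand. Overlapping boxes share letters. The regions are chr11:115267194-115267493 on the minus strand for Grin2c, chr4:125490446-125490745 on the plus strand for Grik3, chr7:25072320-25072619 on the minus strand for Grik5, chr7:57387166-57387465 on the minus strand for Gabrg3 and chr5:71657671-71657970 on the plus strand for Gabrb1, the first of 2 starts of Gabrb1.
Grin2c: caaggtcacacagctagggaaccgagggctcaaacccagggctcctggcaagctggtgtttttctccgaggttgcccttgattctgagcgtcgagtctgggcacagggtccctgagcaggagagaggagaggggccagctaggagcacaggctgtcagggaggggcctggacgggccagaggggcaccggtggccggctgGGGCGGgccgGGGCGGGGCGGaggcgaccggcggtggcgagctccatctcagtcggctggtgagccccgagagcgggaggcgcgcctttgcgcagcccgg
Grik3: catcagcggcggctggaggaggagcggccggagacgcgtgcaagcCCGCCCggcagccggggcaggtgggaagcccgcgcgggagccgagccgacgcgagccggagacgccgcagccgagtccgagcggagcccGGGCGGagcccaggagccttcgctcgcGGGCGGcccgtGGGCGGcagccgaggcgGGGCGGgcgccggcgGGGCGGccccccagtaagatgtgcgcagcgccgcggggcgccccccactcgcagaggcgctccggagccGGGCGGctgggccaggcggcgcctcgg
Grik5: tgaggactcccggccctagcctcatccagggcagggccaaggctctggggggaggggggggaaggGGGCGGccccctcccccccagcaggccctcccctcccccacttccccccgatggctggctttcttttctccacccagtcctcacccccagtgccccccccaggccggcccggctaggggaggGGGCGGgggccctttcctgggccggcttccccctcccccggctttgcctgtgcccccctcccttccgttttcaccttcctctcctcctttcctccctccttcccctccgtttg
Gabrg3: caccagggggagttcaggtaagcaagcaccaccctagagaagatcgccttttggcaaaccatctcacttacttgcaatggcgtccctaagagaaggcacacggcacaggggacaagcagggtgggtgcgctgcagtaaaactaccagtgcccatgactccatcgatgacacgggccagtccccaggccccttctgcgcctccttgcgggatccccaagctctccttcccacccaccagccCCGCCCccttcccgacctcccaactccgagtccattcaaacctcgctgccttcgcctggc
Gabrb1: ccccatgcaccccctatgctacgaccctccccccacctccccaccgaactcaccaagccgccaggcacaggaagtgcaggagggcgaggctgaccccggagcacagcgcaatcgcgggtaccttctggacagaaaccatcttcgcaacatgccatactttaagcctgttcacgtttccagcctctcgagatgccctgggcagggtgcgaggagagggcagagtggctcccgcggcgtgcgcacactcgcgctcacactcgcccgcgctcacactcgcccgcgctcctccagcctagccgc

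Grik3 held 7 GC boxes, Grin2c 3, Grik5 2 and Gabrg3 1, and neither start of Gabrb1 held any. The box was in 19 of 39 promoters of receptor genes (48.7%) and in 35.7% of 32851 promoters of all genes. The start regions printed above were rich in G and C, against a median of 52.7% over all promoters. They were at 70% for Grin2c, 82% for Grik3, 72% for Grik5, 61% for Gabrg3 and 66% for the first start of Gabrb1. The second start of Gabrb1, not printed, was at 50.3%, below that median. The TATA box TATAAA, searched on both strands, was in 4 of 39 promoters of receptor genes (10.3%) and in 13.6% of all promoters. The cAMP response element TGACGTCA, which reads the same on both strands, was in 0 of 39 and in 1.79% of all. These are letters found in a window, and factor binding was not measured. A link between these letters and the differences with MOTS-c was not tested.

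The enzymes, transporters and partner proteins of the same transmitters were read from a list of 59 genes, of which 50 were tested. At an unadjusted p under 0.05 were 8 (16%, against 7.85% of all probes), 6 lower and 2 higher, and 0 at an adjusted p under 0.05. The median log2 fold change of the list was -0.04.

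Of the 10 tested transporter genes 3 were at that p, all lower with MOTS-c and all carriers of GABA. Slc32a1, which loads GABA into vesicles, had a log2 signal of 11.81 and 11.60 with the scrambled peptide and 10.96 and 10.28 with MOTS-c. Its groups did not overlap, while the MOTS-c arrays lay apart from each other (SD 0.48), with a log2 fold change of -1.08 (SE 0.26, unadjusted p = 0.0107, limma adjusted p = 0.52). Slc6a12, a plasma membrane transporter of GABA and betaine, had a log2 signal of 6.81 and 7.33 with the scrambled peptide and 6.16 and 4.64 with MOTS-c, a log2 fold change of -1.67 (SE 0.54, unadjusted p = 0.03, limma adjusted p = 0.571). Slc6a13, which takes up GABA and taurine, had 6.02 and 6.40 against 5.58 and 4.70, a log2 fold change of -1.07 (SE 0.33, unadjusted p = 0.0266, limma adjusted p = 0.564). In all 3 genes MOTS-c replicate 3 was the lowest array, and with MOTS-c replicate 2 alone the log2 fold changes were -0.74 for Slc32a1, -0.91 for Slc6a12 and -0.63 for Slc6a13. Of the 8 tested genes of synthesis and breakdown 1 was lower and 1 higher at that p. The lower one was Gad2, an enzyme that makes GABA from glutamate, with a log2 signal of 10.77 and 10.61 against 10.38 and 10.22, and so a log2 fold change of -0.39 (SE 0.14, unadjusted p = 0.0395). Its partner enzyme Gad1 was on no array.

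Of the 32 tested auxiliary and scaffold genes 2 were lower and 1 higher at that p. The scaffold genes Dlg4 (PSD-95), which anchors NMDA and AMPA receptors, and Shank2, which links such scaffolds to the cytoskeleton, had -0.66 (SE 0.12, unadjusted p = 0.00393) and -0.54 (SE 0.13, unadjusted p = 0.00972). Kctd8, an auxiliary subunit of GABA-B receptors, had 0.42 (SE 0.13, unadjusted p = 0.0238). In all 8 genes the groups did not overlap, against 38.0% of all probes. Their choice by p from the same arrays makes this likely, so it is no further support. The count of 8 was 3 without scrambled replicate 1 (5.25% of all probes), 3 without scrambled replicate 2 (4.57%) and 15 without MOTS-c replicate 2 (13.1%).

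Receptor subunits and these partner genes are also expressed by neurons and glia, whose fibers enter islets, so their markers are given beside them. All 7 neuron markers were well above background on all 4 arrays, endocrine cells expressing several of them too, and their summed signal was 36200 to 40300 on the scrambled arrays and 36400 to 43500 on the MOTS-c arrays. Rbfox3 had a log2 fold change of -0.54 (SE 0.17, unadjusted p = 0.0269) and Nefl 0.32 (SE 0.12, unadjusted p = 0.0495), and the others did not pass that p. Of 6 Schwann cell and glia markers, 3 were on all arrays, Sox10 was on 1 array, and S100b was on none. Their summed signal was 12300 and 12400 with the scrambled peptide and 9880 and 11100 with MOTS-c. The summed signal of the 6 beta cell markers was 849000 and 874000 against 842000 and 842000. Most of it came from Ins1 and Ins2, at the top of the signal range, where quantile normalization sets the arrays nearly alike. Ins2 had the same log2 signal, 18.54, on scrambled replicate 1 and both MOTS-c arrays. These sums therefore cannot show whether the share of beta cells differed. Slc2a2, the glucose transporter of beta cells, had a log2 fold change of -1.33 (SE 0.14, unadjusted p = 0.000277, limma adjusted p = 0.474). Its spots were dim, 1.85 and 2.3 times local background with the scrambled peptide and 1.31 and 1.33 times with MOTS-c, and not well above background on MOTS-c replicate 2. The other beta cell markers had log2 fold changes of 0.16 (Mafa), 0.07 (Iapp), -0.04 (Ins1), -0.05 (Ins2) and -0.19 (G6pc2). None of these passed an unadjusted p under 0.05. Of the 3 tested alpha cell markers Irx2 was higher at 0.68 (SE 0.16, unadjusted p = 0.0102, limma adjusted p = 0.519), with spots 1.66 to 1.89 times local background. The others, Gcg and Ttr, had log2 fold changes of 0.11 (SE 0.12) and -0.27 (SE 0.22) and did not pass an unadjusted p under 0.05. Of the 2 tested mesenchymal markers Pdgfra was lower at -1.04 (SE 0.33, unadjusted p = 0.0289, limma adjusted p = 0.567), and Acta2 had -0.14 (SE 0.13) and did not pass that p. The summed signal of the mesenchymal list was 5520 and 4960 against 4740 and 4720. Of the acinar, duct, endothelial, mesenchymal and macrophage markers, 1 or 2 in each list were on all 4 arrays. The part of these cell types in the differences of the receptor genes was not tested.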

How the data were processed

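RNA of 4 samples of islet cells was labelled with Cy3 and hybridized to Agilent mouse arrays. The authors extracted the spots with Feature Extraction software, and the intensity values they deposited are corrected for local background, with no normalization across arrays. The authors also deposited a table of these intensity values with 3 significant digits, used as an alternative. Samples were grouped by their treatment labels.

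Without control spots (3671 an array) and outlier spots, log2 intensities were averaged over the spots of a probe. Probes detected on 2 or more of the 4 arrays, as well above background, were kept (35087 of 56605) and quantile normalized. MOTS-c was compared with scrambled by limma (version 3.58.1, R 4.3.3) with Benjamini-Hochberg adjustment over all probes, with 2 residual degrees of freedom and 2.64 added from the other probes. The labels name 4 littermates with 2 samples a group and not which animal each array came from, so the p-values measure only the spread between these samples, which may be technical, and the number of arrays limits the precision. An exact permutation test was not used for single genes, since 2 arrays against 2 cannot reach 0.05. The methods filter on a Flag A that they do not define. The test was checked on simulated data.

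Symbols came from the RefSeq gene table of GRCm38.p6 through the accession in the array files, which matched 32994 probes, and 23611 stayed without a symbol. Receptor genes had 74 probes, with more than 1 in 22 genes, and the brightest was used. The array design is annotated on mm9, so no probe coordinates are given, and probe sequences were not used here.

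Values on every array are given for receptor genes at an unadjusted p under 0.05, or without overlap at 1.5-fold or more, and for 1 gene of each other class, that with the highest ratio to its background. The members and lists were chosen with earlier results of these data known. Some genes under this rule are counted and not otherwise reported here.

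Alternatives were a 75th percentile shift, normexp (offset 50, on median signals), the authors' table, no filter and a strict filter on dim probes, outlier spots kept, the mean over a gene's probes, limma with a trend, the methods' t-test, detection at 3 times local background or by any probe, and each array left out in turn.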

Additional observations from a re-analysis of the deposited data

How the results depend on the processing

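Under all alternatives run, 0 receptor genes passed an adjusted p under 0.05. The number at an unadjusted p under 0.05 was 8, and it was 8 to 11 under the other alternatives except the methods' t-test, which gave 4 (6.59% of all probes); with 1 array left out it ranged from 5 to 13, beside 4.57% to 13.1% of all probes. The number that also reached 1.5-fold was 6, beside 3.53% of all probes, and it was 1 with normexp (1.16%), 3 with the methods' t-test (1.3%) and 4 to 6 with 1 array left out (3.96% to 9.4%). Over all probes the methods' t-test called 2312 at an unadjusted p under 0.05 and 1 at an adjusted p under 0.05. Genes whose groups do not overlap numbered 17, beside 38.0% of all probes, and 20 to 26 with 1 array left out, where fewer arrays have to be apart. The share of all probes with 1 array left out is not given here, so those counts cannot be set against it. Well above background on all 4 arrays were 28 genes, and 17 where the signal had to be 3 times the local background. Among the enzyme, transporter and scaffold genes the count of 8 at an unadjusted p under 0.05 ranged from 3 to 15 with 1 array left out. The 7 receptor genes named at that p kept their sign under every alternative. Near 0, Gabrr2 turned from 0.02 to -0.034 with normexp and ranged from -0.066 to 0.108 with 1 array left out, below 0 without scrambled replicate 1 (-0.066) and without MOTS-c replicate 3 (-0.028), and Grm2 ranged from -0.182 to 0.127, above 0 without scrambled replicate 2; the cause was not tested. Where an array was left out, the lone array of its group was assumed to vary like the other group. No paired analysis was possible because the groups share only replicate number 2. Dim probes and n = 2 arrays a group limit what can be seen.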
